A study of Mus musculus with 12 samples.

Results

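The genes described are the death receptor Fas, its ligand Fasl and 6 genes of the BCL-2 family (Bcl2l11, Bid, Bax, Bcl2, Bcl2l1 and Mcl1). They were taken as the probe sets of an Affymetrix mouse array whose only gene symbol in the platform annotation was 1 of these 8 names. This gave 21 of the 22690 probe sets, for 7 of the 8 genes, and 16 of the 21 were bright enough to be tested among 13556. Bax had no such probe set and was not analysed here. The cells came from 5CC7 mice, whose T cells carry a transgenic receptor for a moth cytochrome c peptide, and were injected into B10.A recipients through the tail vein. The recipients then received a peptide in PBS by the same route, and 48 h later their lymph nodes were pooled and the 5CC7 cells were sorted by flow cytometry. The groups had MCC at 2 µg, MCC at 0.2 µg, 102S at 2 µg or 102S at 0.2 µg, with 3 arrays each and 12 in all. MCC is the strong agonist of this receptor and 102S the weak one. All 4 groups had met a peptide, no unstimulated cells were analysed here, and the labels do not say whether replicates came from separate animals.

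Activated T cells die along routes that these genes serve. Fas ligand on one cell binds Fas on another and recruits caspase-8. In the mitochondrial route, BH3-only proteins such as BIM (from Bcl2l11) and BID bind the survival proteins BCL-2, BCL-XL (from Bcl2l1) and MCL-1, or act directly on the pore formers BAX and BAK. BIM and Fas are both known for removing T cells after stimulation, and BCL-XL for keeping freshly activated ones alive.

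Fasl and Bcl2l11 are both known targets of FOXO transcription factors, whose DNA recognition core is GTAAAC. The 250 bases upstream of their annotated starts are shown because these were the death genes whose levels differed most between the groups. The sequences are RefSeq's for GRCm38.p6. That of Fasl lies at chr1:161788496-161788745 on the minus strand, and that of the upstream start of Bcl2l11 at chr2:128125788-128126037 on the plus strand. Each runs 5′ to 3′ toward the start, with GTAAAC, or GTTTAC where it lies on the other strand, in capitals.
Fasl: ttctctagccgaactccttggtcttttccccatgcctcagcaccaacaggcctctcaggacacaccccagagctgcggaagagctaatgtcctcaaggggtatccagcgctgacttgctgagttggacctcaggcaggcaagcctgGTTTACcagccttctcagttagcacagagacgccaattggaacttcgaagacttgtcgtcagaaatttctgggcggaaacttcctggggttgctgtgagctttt
Bcl2l11: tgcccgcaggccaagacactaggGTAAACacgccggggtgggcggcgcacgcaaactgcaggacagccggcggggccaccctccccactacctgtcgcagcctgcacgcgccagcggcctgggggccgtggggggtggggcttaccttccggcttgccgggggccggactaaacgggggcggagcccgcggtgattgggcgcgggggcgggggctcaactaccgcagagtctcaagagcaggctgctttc
The match lay 104 bases upstream of the Fasl start and 227 bases upstream of the Bcl2l11 start, where it also made up the longer form GTAAACA. On either strand, GTAAAC occurred in 3 of the 11 windows of the 8 genes, the third being that of 1 of 3 Bcl2l1 starts, and in 6.92% of 32851 mouse promoter windows of this length. The longer form, which contains the shorter one, occurred in 3.17% of all windows. The second annotated start of Bcl2l11 had no GTAAAC in its window. The short NFAT core GGAAA was in 9 of the 11 windows and 55.6% of all windows, the KLF core CCACCC in 3 and 28.1%, and the EGR motif GCGGGGGCG in 1 and 2.57%. These are letter matches and do not show that a factor binds there.

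The values are log2 expression levels, with array medians between 5.17 and 5.26. Replicates correlated across probe sets at r = 0.977 to 0.995. Xist, an RNA made in female cells, lay between 11.7 and 12.3 log2 on replicate 1 of each group (4 arrays) and between 4.05 and 5.10 on the other 8, called Xist-low here, so replicate 1 stood apart from replicates 2 and 3 in every group. The excess of 3′ over 5′ signal for β-actin, a sign of degraded RNA when large, was 0.63 ± 0.12 log2 with 2 µg of MCC and 1.62 ± 0.81 log2 with 0.2 µg of MCC (SD, n = 3). It was 1.24 ± 0.41 log2 for the 2 µg arrays of 102S and 1.33 ± 0.88 log2 for the 0.2 µg arrays of 102S. Of 7 T cell markers, Cd3d averaged 12.76 to 12.97 log2 over the 4 groups, and 1 was called, Cd5, a restraint on receptor signalling. It was higher with MCC at 0.2 µg (1.11 log2, adjusted p = 0.000173) and at the larger dose of 102S (1.27 log2, adjusted p = 0.000232). Of 6 B cell markers, Cd79a, Ms4a1 and Pax5 were under the brightness filter, while group means reached 11.45 log2 for Ighm, 7.23 for Cd74 and 5.73 for Cd79b.

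Among the members, Fasl differed most between peptides, and it was lower with MCC. Bcl2l11 was higher with MCC at both doses, and Bcl2l1 was higher with MCC at the low dose. The probe set with the highest mean stood for a gene, and a difference was called at a limma Benjamini-Hochberg adjusted p under 0.05 over all 13556 probe sets. At 2 µg, 1 of the 7 members was higher and 1 lower with MCC, where 4.43% of all 7945 genes tested were called higher and 6.83% lower (11.3% in all). At 0.2 µg, 2 were higher and 1 lower, against 9.09% and 7.02% of all genes (16.1% in all). The larger dose of MCC gave 1 higher member (0.717% of all genes higher, 1.93% called) and that of 102S gave 2 (3.3% of all genes higher, 3.83% called). The member called for MCC was Fasl, whose MCC means were both under the brightness filter. The arrays of the groups compared did not overlap for 3 members between peptides at 2 µg and 4 at 0.2 µg, beside 33.7% and 31.3% of all genes. They did not overlap for 3 members between doses of MCC and 2 between doses of 102S, beside 19.2% and 22.8% of all genes. Those 3 include Fasl, with its means under the filter. The peptide difference at 2 µg minus that at 0.2 µg passed in limma for 0 of the 7 members and 0.906% of all genes, with 2 members at an unadjusted p under 0.05. Across the 7, the median peptide difference was -0.06 log2 at 2 µg and 0.15 log2 at 0.2 µg, beside -0.05 and -0.01 over all genes. The comparisons share arrays, since each group enters both a peptide and a dose comparison.

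**Figure D1:**
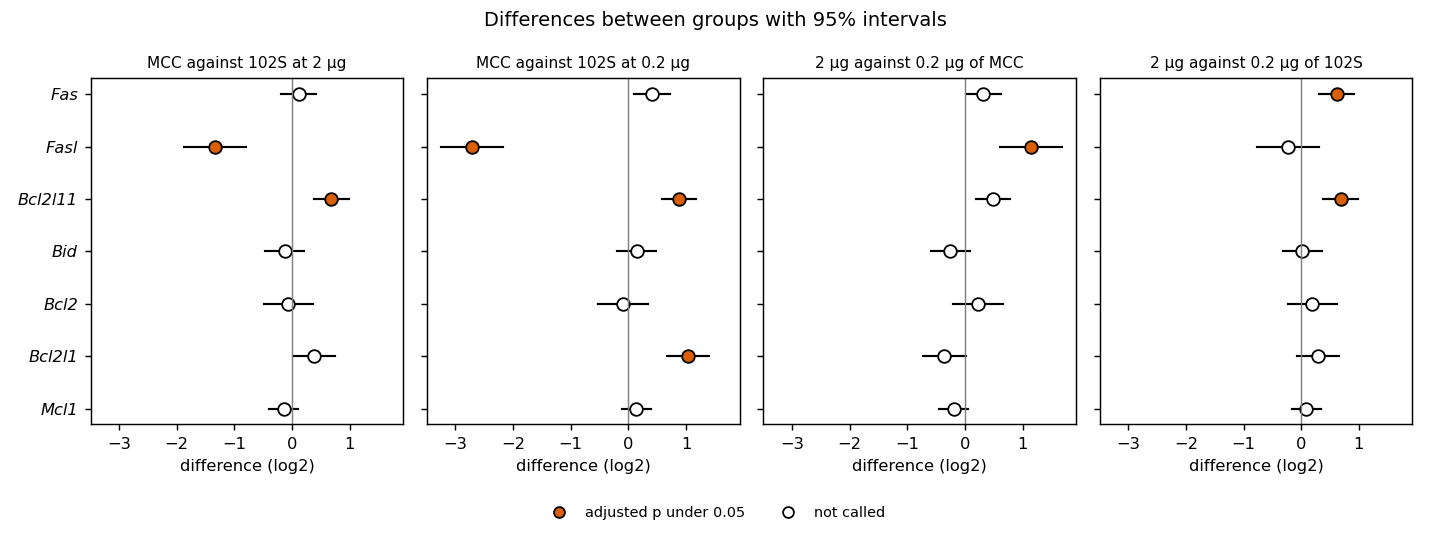
Differences between groups for the 7 measured genes, on the log2 scale (x axis), with MCC over 102S in the left panels and 2 µg over 0.2 µg in the right panels. Points are fitted differences, bars 95% intervals, and filled points have an adjusted p under 0.05. Fasl lies far left of 0 in both peptide panels, and Bcl2l11 lies right of 0 in all 4.

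Fasl encodes the ligand that triggers death through Fas. It read 4.87, 4.36 and 4.11 log2 with 2 µg of MCC and 3.39, 2.94 and 3.58 with 0.2 µg of MCC. It read 6.18, 5.50 and 5.66 with 2 µg of 102S and 6.23, 5.90 and 5.90 with 0.2 µg of 102S. Every MCC array thus lay below every 102S array, and 5 of the 6 MCC arrays lay under the filter level of 4.48 log2, where a transcript may be undetected. Fasl therefore passed the filter through its 102S arrays. At 2 µg it was lower with MCC by 1.33 ± 0.25 log2 (difference -1.33, SE; adjusted p = 0.00526). With the MCC mean raised to the filter level, this is at least 2.47-fold lower. At 0.2 µg, where all 3 MCC arrays were under the filter level, only a bound holds, at least 1.54 log2 or 2.90-fold lower with MCC (measured means 3.30 and 6.01 log2, adjusted p = 1.55e-05). In RNA from a sorted population, fewer cells that express a gene and less RNA per cell cannot be told apart.

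Within MCC, Fasl read higher at the larger dose, but both of its means were under the filter, where differences are not resolved. Its mean was 4.45 ± 0.39 log2 at 2 µg and 3.30 ± 0.33 log2 at 0.2 µg of MCC (SD, n = 3), a difference of 1.14 ± 0.25 (SE; adjusted p = 0.0399). Both means being under 4.48, no fold is given. The call was lost in the 6 arrays of MCC alone (adjusted p = 0.0927), in the 8 Xist-low arrays alone (0.98 log2, adjusted p = 0.0654), with the β-actin difference as a covariate (1.00 log2, adjusted p = 0.053) and without any 1 of 8 arrays (0.93 to 1.28 log2, adjusted p = 0.054 to 0.152). Those were replicates 1 and 2 of MCC 2 µg, 2 and 3 of MCC 0.2 µg, 2 and 3 of 102S 2 µg, and 1 and 2 of 102S 0.2 µg. Within 102S the 2 doses overlapped, at 5.78 ± 0.36 log2 for 2 µg and 6.01 ± 0.19 log2 for 0.2 µg (difference -0.23, 95% interval -0.77 to 0.31). The second Fasl probe set was under the filter and untested, with group means between 3.63 and 4.40 log2. At 2 µg it showed no peptide difference, at -0.04 log2 (95% interval -0.65 to 0.56) with overlapping groups. At 0.2 µg it was lower with MCC, at -0.78 log2 without overlap. Its MCC doses overlapped, with a difference of 0.31 log2. The dose dependence of the peptide difference was 1.37 ± 0.35 log2 (adjusted p = 0.132). It passed with the Xist type of the array as a block (adjusted p = 0.0179) and includes means under the filter.

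Fas, the receptor for that ligand, was lowest after the low dose of the weak peptide. It read 8.18, 8.12 and 7.90 log2 with 2 µg of MCC and 7.87, 7.72 and 7.64 with 0.2 µg of MCC. With 102S it read 8.0, 7.87 and 7.99 at 2 µg and 7.39, 7.54 and 7.09 at 0.2 µg. The arrays of 0.2 µg of 102S lay below all 9 others, and each other group overlapped its neighbour in the order of levels. Fas was higher at 2 µg than at 0.2 µg of 102S by 0.62 ± 0.14 log2, or 1.53-fold (adjusted p = 0.0331). That call was lost in the Xist-low arrays alone (0.62 log2, adjusted p = 0.222), without the filter (adjusted p = 0.0539) and in the 6 arrays of 102S alone (adjusted p = 0.0931). It was also lost without replicate 2 of MCC 0.2 µg, any replicate of 102S 2 µg, or replicate 1 or 3 of 102S 0.2 µg (0.49 to 0.66 log2, adjusted p = 0.054 to 0.136).

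Between peptides, Fas differed by 0.11 ± 0.14 log2 at 2 µg (95% interval -0.19 to 0.42) and by 0.41 ± 0.14 at 0.2 µg (adjusted p = 0.0747). The difference at 0.2 µg passed with the β-actin covariate (0.46 log2, adjusted p = 0.00557), with quantile normalization (0.47 log2, adjusted p = 0.00646) and with the Xist type as a block (adjusted p = 0.0437). The dose of MCC gave 0.32 ± 0.14 log2 (adjusted p = 0.258).

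**Figure D2:**
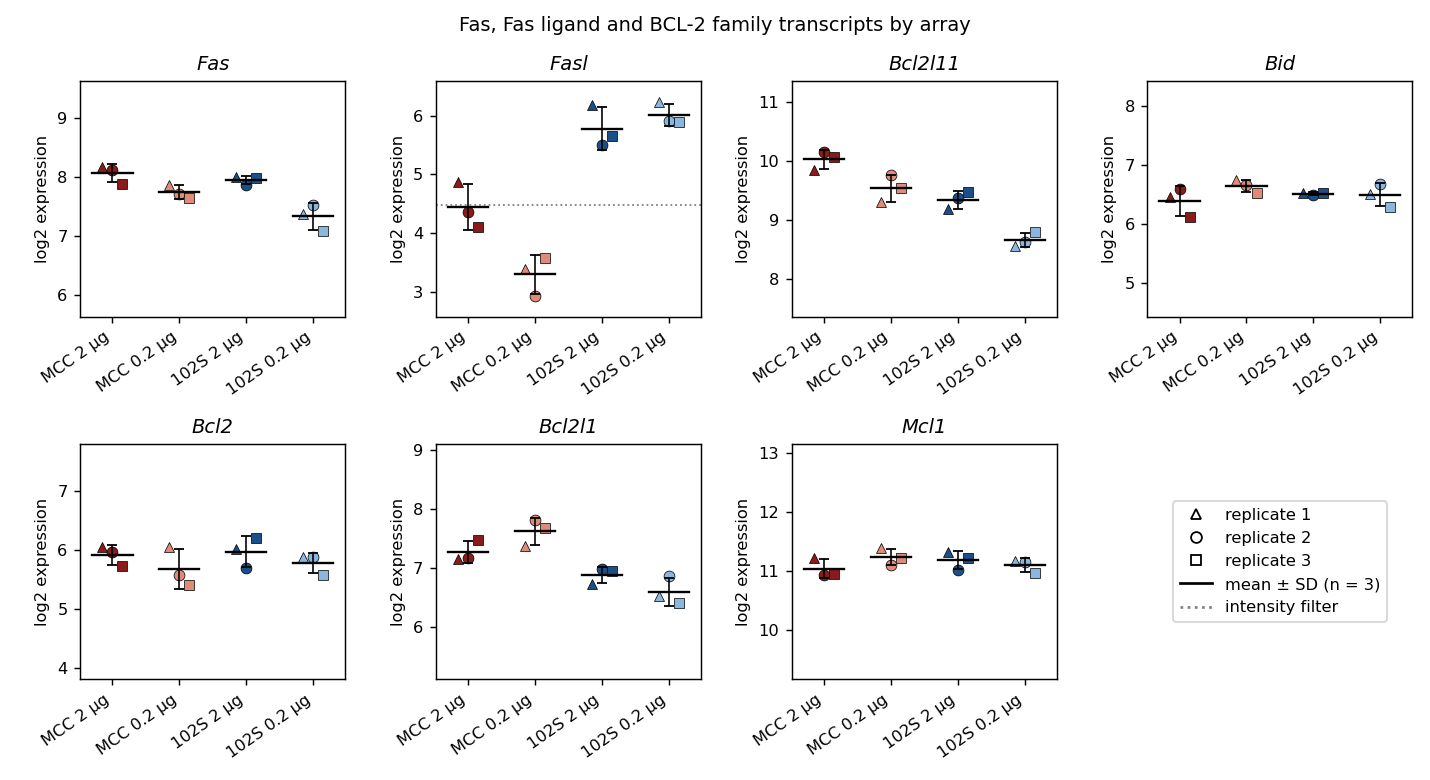
Log2 expression (y axis, the same span in every panel) of the 7 genes on the 12 arrays by peptide and dose (x axis). Symbols mark the replicate number, lines and bars the mean ± SD of 3 arrays, and the dotted line in the Fasl panel the filter level of 4.48 log2. Fasl is lower on all MCC arrays, Bcl2l11 steps down from left to right, and Bid, Bcl2 and Mcl1 stay within 0.29 log2 between group means.

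Bcl2l11, which encodes the BH3-only protein BIM, was higher with MCC at both doses and with the larger dose of 102S. It read 9.85, 10.16 and 10.06 log2 with 2 µg of MCC and 9.30, 9.76 and 9.53 with 0.2 µg of MCC. With 102S it read 9.18, 9.37 and 9.47 at 2 µg and 8.55, 8.63 and 8.79 at 0.2 µg. The highest and lowest groups stood apart from the rest, and 0.2 µg of MCC overlapped 2 µg of 102S. MCC exceeded 102S by 0.68 ± 0.14 log2 at 2 µg, or 1.61-fold (adjusted p = 0.00771), and by 0.88 ± 0.14 log2 at 0.2 µg, or 1.83-fold (adjusted p = 0.00103). In the Xist-low arrays alone these differences were 0.69 and 0.94 log2 and stayed called. The β-actin difference of the 2 µg groups did not overlap, at 0.50 to 0.72 log2 with MCC and 0.81 to 1.62 log2 with 102S. With it as a covariate the 2 µg difference was 0.80 log2 for Bcl2l11 and -1.42 log2 for Fasl, both called. Because the covariate differs between these groups, that fit cannot part RNA quality from peptide at 2 µg.

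Bcl2l11 was higher at the larger dose of 102S by 0.68 ± 0.14 log2 (1.60-fold, adjusted p = 0.0152). That call was lost without replicate 2 or 3 of 102S 2 µg, or replicate 1 or 2 of 102S 0.2 µg (0.62 to 0.67 log2, adjusted p = 0.0658 to 0.0859). The dose of MCC gave 0.49 ± 0.14 log2 with no overlap of its groups (adjusted p = 0.102). It passed with the Xist type as a block (adjusted p = 0.0124) and with the β-actin covariate (0.67 log2, adjusted p = 0.00435), and missed in the Xist-low arrays alone (0.46 log2, adjusted p = 0.0905). The β-actin fit has the same limit here. That difference was 0.50 to 0.72 log2 with 2 µg of MCC and 0.74 to 2.33 log2 with 0.2 µg of MCC. The 2 peptide differences did not differ by dose beyond error (-0.19 log2, 95% interval -0.61 to 0.23).

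The 5 probe sets of Bcl2l11 did not move alike. Probe set 1435448_at was called in all 4 comparisons, at 0.77 and 0.68 log2 between peptides at 2 µg and 0.2 µg, 0.76 for the dose of MCC and 0.67 for that of 102S. The dimmer 1435449_at and 1456006_at were called at 2 µg between peptides, at 1.91 ± 0.53 (adjusted p = 0.0403) and 0.65 ± 0.18 log2 (adjusted p = 0.0358). At 0.2 µg they differed by 0.37 and 0.21 log2 and were not called, and neither was called for a dose. The first of these was the most variable and varied within groups, at 7.90, 7.17 and 7.0 log2 with 2 µg of MCC against 6.46, 5.06 and 4.83 log2 with 2 µg of 102S. The fifth was under the filter, with a mean of 4.84 ± 0.64 log2 with 2 µg of MCC and 3.53 to 3.88 log2 in the other groups. Which transcripts of the gene each probe set reads was not analysed here.

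**Figure D3:**
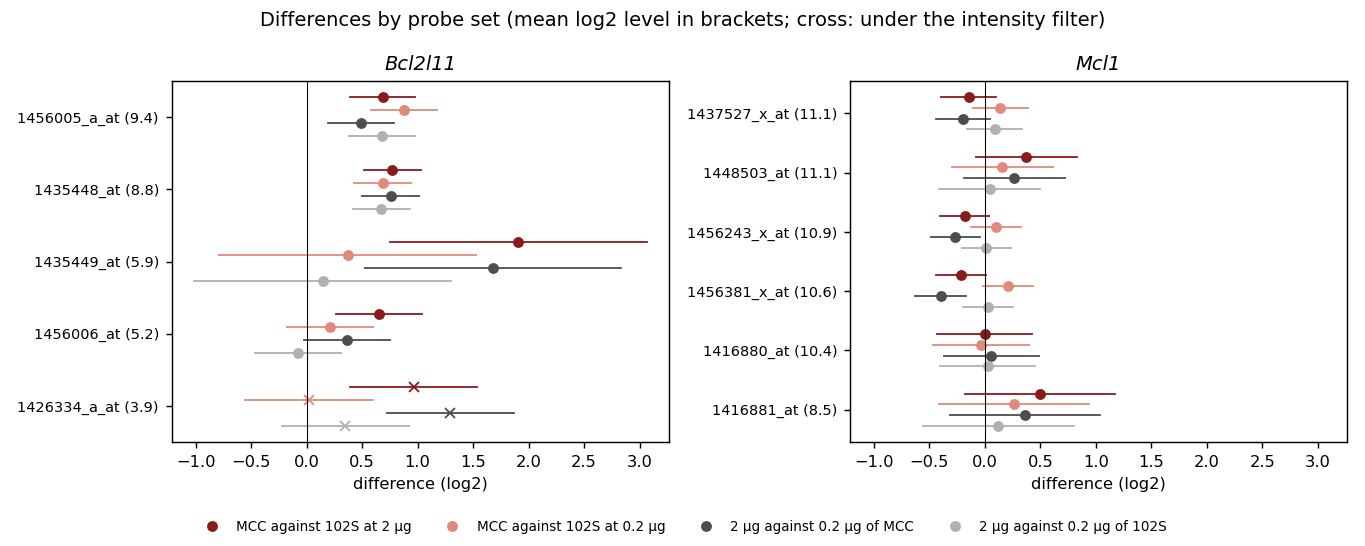
Differences (x axis, log2) for each probe set of Bcl2l11 and Mcl1 (y axis, with its mean log2 level over 12 arrays), in 4 comparisons by colour. Bars are 95% intervals and crosses mark a probe set under the filter. The 2 brightest Bcl2l11 probe sets lie right of 0 in all comparisons, while those of Mcl1 lie on both sides of 0 at 2 µg.

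Bid, the BH3-only protein that caspase-8 cleaves to link Fas to the mitochondrion, was not called in any comparison. Its arrays ranged from 6.11 to 6.59 log2 with 2 µg of MCC and from 6.52 to 6.73 with 0.2 µg of MCC. With 102S they ranged from 6.48 to 6.52 at 2 µg and from 6.29 to 6.67 at 0.2 µg. All adjoining groups overlapped, and the 95% intervals of the 4 differences lay between -0.59 and 0.49 log2. Its second probe set, with group means between 4.62 and 4.90 log2, was not called either. Between peptides at 2 µg that probe set differed by 0.28 log2 without overlap, and the first by -0.13 log2 with overlap. The direction thus depended on the probe set. Groups did not overlap for 33.7% of all genes in that comparison.

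Among the survival members Bcl2, Bcl2l1 and Mcl1, only Bcl2l1 was called between peptides, and only at 0.2 µg. It encodes BCL-XL, and it read 7.15, 7.17 and 7.48 log2 with 2 µg of MCC and 7.37, 7.82 and 7.67 with 0.2 µg of MCC. With 102S it read 6.73, 6.98 and 6.94 at 2 µg and 6.52, 6.86 and 6.39 at 0.2 µg. All 6 MCC arrays lay above all 6 arrays of 102S, and the doses of each peptide overlapped. At 0.2 µg MCC exceeded 102S by 1.03 ± 0.17 log2, or 2.04-fold (adjusted p = 0.00151), and by 1.12 log2 in the Xist-low arrays alone (adjusted p = 0.00709). At 2 µg the difference was 0.38 ± 0.17 log2 (adjusted p = 0.194). The 2 differences differed by -0.65 ± 0.24 log2 (unadjusted p = 0.0187, adjusted p = 0.432). The dose gave -0.36 ± 0.17 log2 for MCC (adjusted p = 0.292) and 0.29 ± 0.17 for 102S (adjusted p = 0.548). Its other 3 probe sets were under the filter, with group means between 2.80 and 3.93 log2.

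Bcl2 and Mcl1, which encode the survival proteins BCL-2 and MCL-1, were not called in any comparison. Bcl2 ranged from 5.73 to 6.05 log2 with 2 µg of MCC, 5.41 to 6.06 with 0.2 µg of MCC, 5.70 to 6.21 with 2 µg of 102S and 5.59 to 5.89 with 0.2 µg of 102S. All groups overlapped in the order of levels, and the 95% intervals of the 4 differences lay between -0.53 and 0.66 log2. The brightest Mcl1 probe set averaged 11.04, 11.24, 11.19 and 11.10 log2 in the same groups, with intervals between -0.44 and 0.39 log2. It is of the kind named _x_at, which may bind further transcripts. At 2 µg it and the other 2 such probe sets were lower with MCC, by -0.15 to -0.22 log2, whereas 1448503_at and 1416881_at were higher by 0.37 and 0.50 log2, so the direction of Mcl1 depended on the probe set and none of its 6 was called. The nearest was 1456381_x_at for the dose of MCC, at -0.40 ± 0.10 log2 (adjusted p = 0.0829).

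Within each array, the ratio of Bcl2l11 to Bcl2 was higher with MCC at both doses, and that to Bcl2l1 was higher at 2 µg and overlapped at 0.2 µg. The ratio to Mcl1 was higher with MCC for all 6 Mcl1 probe sets at both doses, and whether groups overlapped depended on the probe set. The log2 ratio of Bcl2l11 to Bcl2 was higher with MCC by 0.75 at 2 µg and by 0.98 at 0.2 µg. The groups did not overlap at either dose. For Bcl2l11 to the 6 Mcl1 probe sets, the change ranged from 0.18 to 0.90 at 2 µg, with 4 of 6 not overlapping, and from 0.62 to 0.91 at 0.2 µg, with 3 of 6 not overlapping. For Bcl2l11 to Bcl2l1 they were 0.30 at 2 µg and -0.15 at 0.2 µg, with overlapping groups at 0.2 µg. At the larger dose of MCC the ratio of Bcl2l11 to Bcl2l1 was higher by 0.85 with no overlap. Among single genes, groups did not overlap for 33.7% between peptides at 2 µg, 31.3% at 0.2 µg and 19.2% between doses of MCC. The share over all ratios was not analysed here. These ratios share the same Bcl2l11 values, so they are not separate observations. These unequal changes have no test of their own, and protein amounts were not measured.

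On the lists of further survival genes, pore formers and BH3-only genes, 1, 1 and 4 genes were tested, and 1 was called. Over all genes, 11.3% were called between peptides at 2 µg and 16.1% at 0.2 µg. Bak1, the pore former that can act in place of BAX, was higher with MCC at 0.2 µg, at 5.66 ± 0.10 against 4.99 ± 0.16 log2 with 102S (SD, n = 3; difference 0.67, adjusted p = 0.00781), and level at 2 µg (0.002 log2). The other pore former on the list, Bok, was under the filter. Of 6 further BH3-only genes, Bad, Bbc3, Bik and Hrk were tested and 0 were called in any comparison, while Bmf and Pmaip1 were under the filter. Their median differences between peptides were 0.16 log2 at 2 µg and 0.29 log2 at 0.2 µg, beside -0.05 and -0.01 over all genes. Bcl2l2, the survival protein BCL-W, had 0.61 ± 0.27 log2 at 2 µg (adjusted p = 0.194) and 0.74 ± 0.27 log2 at 0.2 µg (adjusted p = 0.0955). Bcl2l10 was under the filter, and the 4 Bcl2a1 genes were not analysed here.

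In the cascade below Fas, 1 of 9 tested genes was called between peptides, beside 11.3% of all genes at 2 µg and 16.1% at 0.2 µg. Ripk3, a kinase of the necroptotic branch, was higher with MCC at 2 µg (8.17 ± 0.17 against 7.59 ± 0.09 log2, adjusted p = 0.0134) and at 0.2 µg (7.99 ± 0.07 against 7.19 ± 0.15 log2, adjusted p = 0.00133). The adaptor Fadd, the initiator Casp8 and the inhibitor Cflar were not called, at -0.37, -0.14 and -0.48 log2 at 2 µg and 0.08, -0.18 and -0.73 log2 at 0.2 µg. Among 11 genes of the apoptosome and the executing steps, 1 was called, the mitochondrial flavoprotein gene Aifm1 (0.45 ± 0.10 log2 higher with MCC at 0.2 µg, adjusted p = 0.0107). Of 4 inhibitor of apoptosis genes tested in their list, Birc2 and Birc3 were lower with MCC at 2 µg, by -0.35 ± 0.10 and -0.52 ± 0.13 log2 (adjusted p = 0.048 and 0.0259), and 0 were called at 0.2 µg. Birc5, of the same gene family, was listed with the genes of cycling cells instead. It was higher with MCC by 1.28 log2 at 2 µg (adjusted p = 0.0225) and by at least 3.91 log2 at 0.2 µg (adjusted p = 1.03e-06). Among 7 genes that turn over MCL-1 or hold BH3 proteins, 1 was called, Ywhaz (-0.25 ± 0.07 log2 at 0.2 µg, adjusted p = 0.0378). Among 9 further BCL-2-related genes 0 were called in limma in any comparison.

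**Figure D4:**
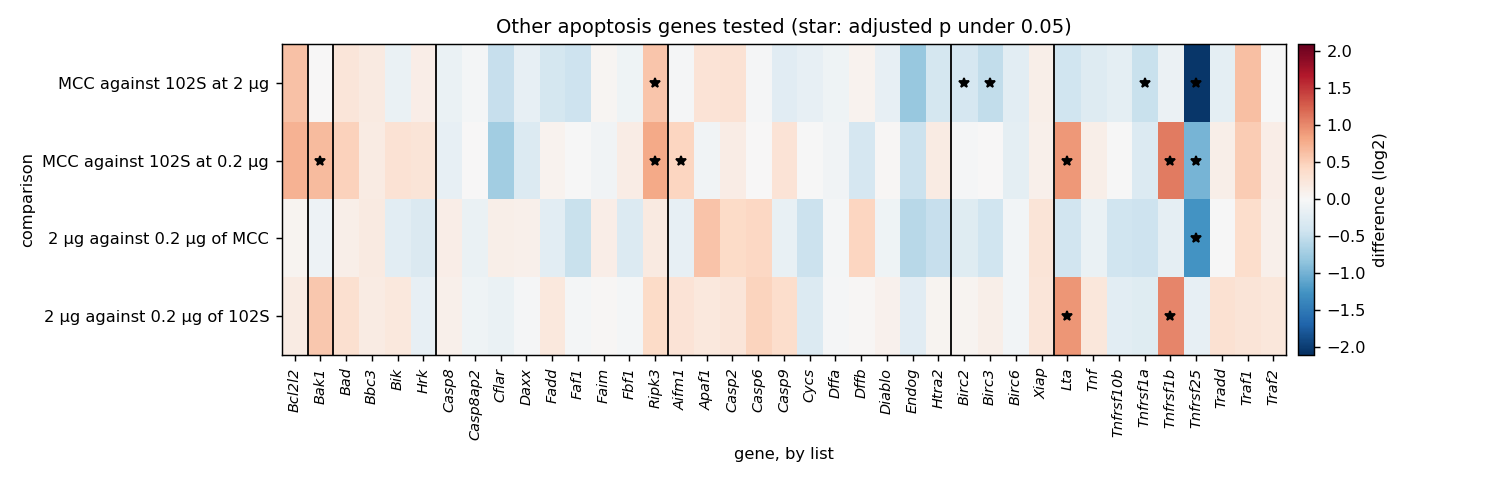
Differences (colour, log2) of other apoptosis genes (x axis) in 4 comparisons (y axis). Vertical lines part, from left, the survival side, pore formers, BH3-only genes, Fas signalling, apoptosome and executing steps, inhibitors of apoptosis, and other death ligands and receptors, and stars mark an adjusted p under 0.05. Tnfrsf25 is the darkest blue, at -2.05 log2 at 2 µg.

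Of 9 tested ligands and receptors of the death-related TNF families, 2 were lower with MCC at 2 µg, and 2 were higher and 1 lower with MCC at 0.2 µg, where 11.3% and 16.1% of all genes were called. Tnfrsf25, the death domain receptor DR3, was lower with MCC, at 5.72 ± 0.47 against 7.76 ± 0.15 log2 at 2 µg (adjusted p = 0.000112) and 6.96 ± 0.06 against 7.93 ± 0.11 log2 at 0.2 µg (adjusted p = 0.00629). It was also lower at 2 µg than at 0.2 µg of MCC (-1.25 log2, adjusted p = 0.00824). Tnfrsf1a, the death domain receptor for TNF, was lower at 2 µg (-0.47 log2, adjusted p = 0.0223). Lta, the ligand lymphotoxin α, and Tnfrsf1b, the TNF receptor without a death domain, were higher with MCC at 0.2 µg, by 0.90 and 1.08 log2 (adjusted p = 0.00172 and 0.000417). Both were also higher at the larger dose of 102S, by 0.93 and 1.02 log2 (adjusted p = 0.00411 and 0.00194), as Fas was.

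Of 12 tested genes listed as regulators of Fasl or Bcl2l11, 3 were higher and 3 lower with MCC at 2 µg, and 2 were higher and 1 lower at 0.2 µg, with 6 and 9 not called. Over all genes, 11.3% were called at 2 µg and 16.1% at 0.2 µg. Nfatc1 and Egr2, factors induced by receptor signalling, were higher with MCC at 2 µg (0.89 and 0.57 log2, adjusted p = 0.00125 and 0.00981) and at 0.2 µg (0.67 and 0.75 log2, adjusted p = 0.0049 and 0.00125). Foxo3 was lower with MCC at 2 µg (-0.54 ± 0.12 log2, adjusted p = 0.016) and not called at 0.2 µg (-0.16 log2). Foxo1 (-0.31 log2) and E2f1 (0.71 log2), the other 2 called at 2 µg, are named after their values were seen. Klf2, a factor of quiescent T cells, was lower with MCC by -1.56 log2 at 2 µg and by -3.33 log2 at 0.2 µg (adjusted p = 0.000221 and 3.12e-07).

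Of 13 tested genes of cytokine signalling for survival, 1 was higher and 2 lower with MCC at 2 µg, and 2 were higher and 3 lower at 0.2 µg, with 10 and 8 not called. The share of all genes called was 11.3% at 2 µg and 16.1% at 0.2 µg. Il7r, the chain through which IL-7 maintains BCL-2 in resting T cells, was lower with MCC by -2.21 log2 at 2 µg and by -3.38 log2 at 0.2 µg (adjusted p = 0.00018 and 1.94e-06). Il2rb, a chain of the IL-2 and IL-15 receptors, was higher by 1.03 and 2.62 log2 (adjusted p = 0.00577 and 3.4e-06). The survival kinase Pim2 was lower at 2 µg (-0.69 log2, adjusted p = 0.0152), and Pim1 was lower at 0.2 µg (-0.90 log2, adjusted p = 0.00523).

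CD8 T and NK cells also express Fasl. Of 9 of their markers measured, 6 were tested, and 2 were lower with MCC at each dose. Over all genes, 6.83% were lower at 2 µg and 7.02% at 0.2 µg. Klrd1, an NK receptor chain, averaged 4.65 ± 0.57 and 6.27 ± 0.74 log2 with 2 µg and 0.2 µg of MCC, against 7.33 ± 0.19 and 8.63 ± 0.19 log2 with 2 µg and 0.2 µg of 102S (SD, n = 3). Within MCC, Klrd1 was lower at 2 µg than at 0.2 µg (-1.63 log2, adjusted p = 0.0347). Perforin (Prf1) was lower with MCC at 0.2 µg (-1.23 log2, adjusted p = 0.00231) and granzyme A (Gzma) at 2 µg (by at least 1.14 log2 from the filter level, adjusted p = 0.0287). Cd8a (-0.23 and -0.38 log2 at 2 µg and 0.2 µg) and Cd8b1 (-0.24 and -0.47 log2) were not called, nor was the granule gene Nkg7 (-0.10 and 0.31 log2). The NK receptor genes Ncr1 and Klrk1 and the marker Klrg1 were under the filter.

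Summed on the linear scale, the 9 markers reached 8.56 to 8.81 log2 with 2 µg of MCC, 8.86 to 9.26 with 0.2 µg of MCC, 9.26 to 9.35 with 2 µg of 102S and 9.84 to 10.07 with 0.2 µg of 102S. Such a sum leans on bright genes, and Klrd1 had the widest span of these markers, with group means from 4.65 to 8.63 log2. The part of the 9 markers in the Fasl result was not tested. The B cell list, of 6 measured genes, reached 10.80 to 10.99 log2 with 2 µg and 10.66 to 10.78 with 0.2 µg of MCC. With 102S it reached 11.07 to 11.14 log2 at 2 µg and 11.40 to 11.59 at 0.2 µg. Ighm was its brightest gene, with group means from 10.47 to 11.45 log2, so this sum mostly reflects Ighm. Within the list Cd74 was higher with MCC (1.19 and 1.38 log2 at 2 µg and 0.2 µg). With MCC at 0.2 µg, Cd79b was higher (by at least 1.25 log2) and Ighm was lower (-0.98 log2). Of 9 tested genes of cycling cells, 7 were higher with MCC at 2 µg and 8 at 0.2 µg, 6 were higher at the larger dose of 102S and 0 were called in limma for the dose of MCC. The shares of all genes were 4.43%, 9.09% and 3.3% higher in these comparisons, and 1.93% called for the dose of MCC. At 2 µg the proliferation genes Mki67, Top2a, Birc5 and Ccnb2 were higher with MCC by 1.75, 1.77, 1.28 and 1.79 log2. At 0.2 µg Top2a was higher by 3.75 log2, and the other 3 by at least 3.7 log2. The part of these genes in the results for Bcl2l11, Bcl2l1 and Fas was not tested.

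**Figure D5:**
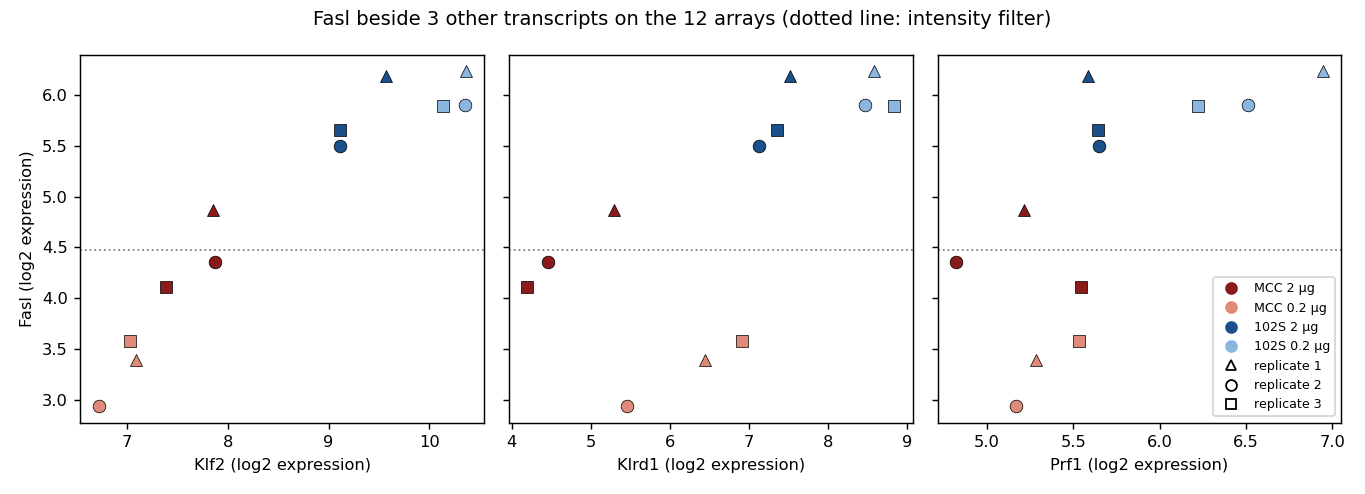
Fasl (y axis, log2) against Klf2, Klrd1 and Prf1 (x axes, log2) on the 12 arrays, by group (colour) and replicate (symbol). Among the 9 markers measured for other cells that express Fasl, Klrd1 and Prf1 had the highest Pearson r with it (0.686 and 0.677). It was lower for Cd8b1 (0.439), Gzma (0.434) and Cd8a (0.411). It was negative for Ncr1 (-0.210), Klrk1 (-0.260), Nkg7 (-0.326) and Klrg1 (-0.408). These r values carry no test and include Fasl readings under the filter. The dotted line is the filter level of 4.48 log2. All MCC arrays lie lower than all 102S arrays on the Fasl axis, and 5 of the 6 lie under the dotted line, where their order is not resolved.

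For the 3 genes whose group means spanned at least 1 log2, the genes with the most similar profiles over the 12 arrays were found by Pearson correlation. Since arrays of a group share their treatment, r describes likeness of pattern and carries no test. Fasl, with a measured span of 2.71 log2 that includes means under the filter, was most like Klf2 (r = 0.957), Cdc42se1 (r = 0.950) and the sphingosine-1-phosphate receptor gene S1pr4 (r = 0.949). Bcl2l11, with a span of 1.37 log2, was most like Gdi2 (r = 0.988), Tmem126a (r = 0.987) and Dera (r = 0.984). Bcl2l1, with a span of 1.03 log2, was most like Mcm3 (r = 0.946), Ran (r = 0.946) and Pgk1 (r = 0.944), genes of DNA replication, nuclear transport and glycolysis. Bcl2l1 and these 3 had their highest group mean with 0.2 µg of MCC and their lowest with 0.2 µg of 102S. Fas (0.73 log2), Bcl2 (0.29), Bid (0.25) and Mcl1 (0.20) spanned less.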

How the data were processed

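For each of 12 arrays the authors deposited log2 values of 22690 probe sets, a scale read from the values (1.86 to 14.7). The submitters' processing notes name GCOS 1.4. How the authors summarised and normalized the probes is not given in those notes or in the labels. Per the labels' protocols, total RNA extracted with Trizol was labelled with a kit that copies from the 3′ end.

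Symbols came from the platform annotation (20393 probe sets with 1 symbol, 691 with several, 1606 with none). Control probe sets (64) and those averaging under the 40th percentile, 4.48 log2, were dropped. All arrays were fitted together in limma 3.58.1 (R 4.3.3; lmFit, then eBayes with an intensity trend) as 4 group means, with 2-sided tests and Benjamini-Hochberg adjustment over 13556 probe sets. A p-value here reflects the spread among these arrays, which may be technical. Arrays have no read depth, and their number limits the precision (median SE of a group difference 0.18 log2). ± is SE for differences and SD for means. A value given as "at least" sets a mean under the filter to the filter level and leaves out sampling error. The fit was tested on simulated data.

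The members and gene lists were chosen with earlier results of these data known. All members were named, as were survival, pore-forming and BH3-only genes, up to 4 called genes of each list by smallest adjusted p, called markers (up to 4 of a list), and the 3 genes most like each member that spanned at least 1 log2. Alternatives changed the filter, normalization, centring, variance model, samples, blocks, covariate and probe set, or left out an array.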

Additional observations from a re-analysis of the deposited data

Results flagged for a closer look

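None of the 7 measured members had a peptide difference that changed with dose at an adjusted p under 0.05 in limma. For 9 other named genes it did, by the test of the interaction, which subtracts the peptide effect (MCC over 102S) of the low dose from that of the high dose. It was -1.21 ± 0.21 log2 for the TNF receptor gene Tnfrsf1b (adjusted p = 0.0189) and -1.33 ± 0.21 for lymphotoxin α, Lta (adjusted p = 0.0116). For the quiescence factor gene Klf2 it was 1.77 ± 0.24 (adjusted p = 0.00471), the peptide difference being -1.56 log2 at 2 µg and -3.33 log2 at 0.2 µg. It was -1.59 ± 0.27 for the cytokine receptor chain Il2rb (adjusted p = 0.0179) and 0.71 ± 0.13 for the immunoglobulin gene Ighm (adjusted p = 0.0245). Among genes of cycling cells it was -3.78 ± 0.34 for Mki67, -1.97 ± 0.26 for Top2a, -3.72 ± 0.44 for Birc5 and -2.97 ± 0.44 for Ccnb2 (adjusted p = 0.000294, 0.00309, 0.00172 and 0.0072). Of these genes of cycling cells, all but Top2a had means under the filter level with 0.2 µg of 102S.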

How the results depend on the processing

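Over the alternatives, 0 called member differences changed direction. Between peptides, the count of called members was 2 at 2 µg and 2 to 4 at 0.2 µg under every alternative, and 2 and 3 whichever array was left out. At 0.2 µg, taking the most variable probe set ended the call of Bcl2l11 (0.37 log2, adjusted p = 0.707). The dose of MCC called 1 member, Fasl, with both means under the filter. That dose called 0 in the arrays of the groups compared only and in the Xist-low arrays alone. With the Xist type as a block it called 2, and without single arrays 0 to 1. The dose of 102S called 2, and called 1 without a filter, in the arrays of the groups compared only, in the Xist-low arrays alone and with the most variable probe set, and 0 to 2 without single arrays. The interaction called 0, and 1 (Fasl) with the Xist type as a block. It was not refitted on a subset of groups, since it uses all 4.

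Replicate numbers are shared by the groups, but the labels do not say that they mark a shared animal or day. Deviations of same-numbered arrays correlated between -0.287 and 0.822, with 16 of 18 over 0.1, and 10 of 12 arrays were most like their own number, which hints at pairing without showing it. With the replicate number as a block, the counts of called members were 2 and 4 between peptides at 2 µg and 0.2 µg, 2 for the dose of MCC, 2 for that of 102S and 1 for the interaction. The calls gained were Fas between peptides at 0.2 µg (adjusted p = 0.028), Bcl2l11 for the dose of MCC (adjusted p = 0.0105) and the Fasl interaction (adjusted p = 0.0156). Counts over all probe sets moved more. With the replicate block they were 2485, 3496, 1563, 828 and 321 in that order, against 1392, 1939, 239, 429 and 104 without it. The Xist block gave 3006, 889, 662 and 245 from 0.2 µg on, and the β-actin covariate 3330, 3645, 542, 1420 and 285. The Xist-low arrays alone gave 772 between peptides at 2 µg, 591 for the dose of MCC and 269 for that of 102S, and the groups compared only gave 1071 at 0.2 µg and 74 for the dose of MCC. Without single arrays the lowest counts were 700, 1051, 61, 210 and 62, and leaving out replicate 1 of MCC 0.2 µg gave 1208 for the dose of MCC.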
